A study of Mus musculus with 14 samples.

Results

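The regions described here are the H3K27me3 islands on mouse chromosome 8. All islands on that chromosome were taken from the control list and from the Smarcb1 kd list, 1071 and 1351 islands, which together are 2422 of the 41229 H3K27me3 islands on all chromosomes. An island was called shared where at least 1 bp of it lay inside an island of the other list, and control-only or kd-only otherwise. Membership in a list and this overlap chose and sorted the islands, so their numbers are given as a description with no test. The lists come from 81K1 cells, a line of mouse embryonic stem cells derived from OG2 cells through the single clone K1, with a doxycycline-inducible shRNA against Smarcb1 in the Rosa26 locus. Both conditions carry this cassette. The control was untreated, and the Smarcb1 kd cells received 1 µg doxycycline per ml medium daily and were harvested at 72 h. ChIP-seq was performed with antibodies against H3K27me3, Ezh2, Smarca4, H3K27ac and H3K4me3, with 1 library per antibody and condition, so that a difference between control and kd cannot be told apart from a difference between the libraries or from an effect of doxycycline itself.

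H3K27me3 is the repressive histone mark placed by the Polycomb Repressive Complex 2, whose catalytic subunit is Ezh2. In embryonic stem cells it is known to form strong domains over CpG islands of silent developmental genes, often together with the promoter mark H3K4me3, and low and broad levels elsewhere. Smarcb1 is a core subunit of the BAF chromatin remodelling complex, whose ATPase in these cells is Smarca4, and the comparison addresses where H3K27me3 regions are gained or lost when Smarcb1 is depleted.

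Stretches of single islands are printed first to show their base composition. For the islands with the lowest p-value or the largest width of each kind, the 200 bp window with the most CpG dinucleotides outside annotated exons was read from GRCm38.p6, plus strand, and every CpG is written in capitals. The first pair comes from control-only islands, at chr8:70316401-70316600 within Cers1, in the island that also reaches Gdf1, and at chr8:90869401-90869600 in an intron of Chd9.
Control-only, Cers1: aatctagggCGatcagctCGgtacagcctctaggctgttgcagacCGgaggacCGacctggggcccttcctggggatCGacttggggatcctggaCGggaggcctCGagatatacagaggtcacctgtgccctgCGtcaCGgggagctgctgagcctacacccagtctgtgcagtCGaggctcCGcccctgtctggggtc
Control-only, Chd9: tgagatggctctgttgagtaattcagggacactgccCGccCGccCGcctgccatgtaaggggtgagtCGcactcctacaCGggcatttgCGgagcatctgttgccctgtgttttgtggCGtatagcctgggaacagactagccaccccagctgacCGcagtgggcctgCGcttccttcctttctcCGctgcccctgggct
The next pair comes from kd-only islands, at chr8:20549301-20549500, in a stretch without an annotated gene, and at chr8:99449551-99449750, upstream of Cdh8.
Kd-only, gene-free stretch: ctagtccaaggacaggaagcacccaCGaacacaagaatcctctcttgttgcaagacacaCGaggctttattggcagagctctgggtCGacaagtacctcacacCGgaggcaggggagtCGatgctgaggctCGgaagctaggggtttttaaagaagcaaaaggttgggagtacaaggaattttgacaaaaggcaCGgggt
Kd-only, upstream of Cdh8: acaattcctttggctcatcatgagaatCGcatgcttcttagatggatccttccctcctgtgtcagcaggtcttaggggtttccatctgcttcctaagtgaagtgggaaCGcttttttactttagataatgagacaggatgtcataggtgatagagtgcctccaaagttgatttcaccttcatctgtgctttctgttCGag
The last set comes from shared islands. The window at chr8:122230201-122230400 is in the island that also covers Zfpm1, but outside and before that gene, which starts at chr8:122282141. The others are at chr8:123622051-123622250 in an array of 5S rRNA genes, and at chr8:57328651-57328850 near Hand2 and outside it.
Shared, before Zfpm1: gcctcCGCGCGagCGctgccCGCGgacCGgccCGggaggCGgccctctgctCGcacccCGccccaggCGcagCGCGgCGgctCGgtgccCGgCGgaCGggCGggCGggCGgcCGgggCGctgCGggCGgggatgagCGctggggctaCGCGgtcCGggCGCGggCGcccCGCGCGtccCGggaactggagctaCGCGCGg
Shared, 5S rRNA array: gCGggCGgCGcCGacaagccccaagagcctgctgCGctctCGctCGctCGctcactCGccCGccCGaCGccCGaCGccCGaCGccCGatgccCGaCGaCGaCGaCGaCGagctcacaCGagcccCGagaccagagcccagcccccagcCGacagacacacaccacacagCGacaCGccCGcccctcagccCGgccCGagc
Shared, near Hand2: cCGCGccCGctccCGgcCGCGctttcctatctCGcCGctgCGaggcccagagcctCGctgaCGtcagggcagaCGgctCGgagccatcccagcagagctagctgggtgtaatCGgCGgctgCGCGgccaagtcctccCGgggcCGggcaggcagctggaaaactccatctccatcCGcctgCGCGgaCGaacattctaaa
The most CpG-rich windows of the control-only islands held 11 and 10 CpG dinucleotides at a GC content of 64% and 61%. Those of the kd-only islands held 7 and 3 at 51.5% and 44%. The windows of the shared islands held 40 before Zfpm1, 31 in the 5S rRNA array and 23 near Hand2, and 140 of the 200 bp in the 5S rRNA array were repeat-masked. Shared islands were picked as the widest and the others by p-value, and a highest count rises with the length searched, so these windows are not a comparison of the kinds.

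Chromosome 8 had more kd-only than control-only islands, which was seen on no other autosome when islands were counted as deposited. That contrast in sign was gone when the longer list was shortened to the length of the other, where the log2 of kd-only over control-only islands was 1.38 on chromosome 8, still the highest, and the other autosomes had a median of -0.08 and a maximum of 0.64. Of the 1071 control islands, 393 were control-only (36.7%, 95% Wilson interval 33.9 to 39.6). This was the lowest share of the 19 autosomes, where 44.3% of control islands were control-only in all, 44.7% without chromosome 8, and the other 18 ranged from 36.9% to 52.1%. Of the 1351 kd islands, 660 were kd-only (48.9%, 46.2 to 51.5). Over the 19 autosomes 28.5% of kd islands were kd-only, 26.8% without chromosome 8, and the other 18 autosomes ranged from 17.6% on chromosome 9 to 38.5% on chromosome 14. The intervals given here and later cover counting error only, since the islands of a list come from a single library.

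Divided by the control-only islands, the kd-only islands of chromosome 8 gave a log2 value of 0.75 (0.57 to 0.93). The other autosomes lay between -2.03 on chromosome 9 and -0.21 on chromosome 14, with a median of -0.97. The side of 0 depended on how islands were counted. With islands of p at most 1e-20 in both lists the ratio on chromosome 8 was -0.34, and with bases in place of islands it was -0.13. Chromosome 8 still had the highest ratio at the stricter p, where the other autosomes lay between -2.94 and -0.89. In bases it came after chromosome 14, which had -0.06.

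**Figure D1:**
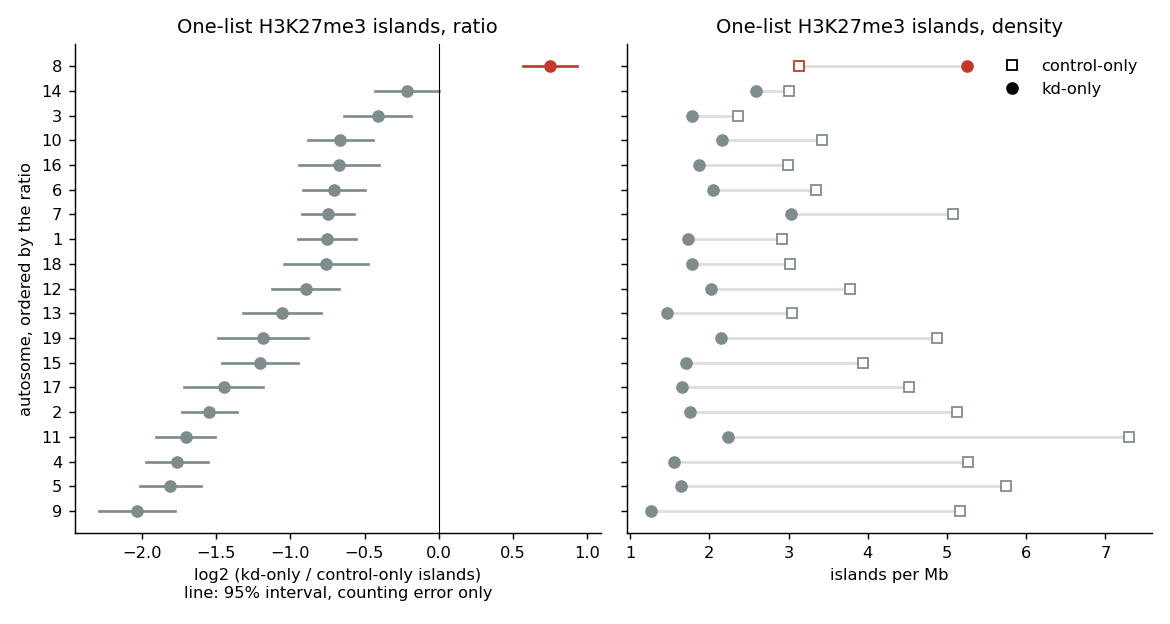
Islands found in a single list on each autosome (vertical axis, ordered by the ratio), as log2 of kd-only over control-only islands with its 95% counting interval (left) and as islands per Mb (right, open squares control-only, filled circles kd-only). Chromosome 8, in red, has a log2 value of 0.75 and 5.25 kd-only islands per Mb, and each of the 18 other autosomes has more control-only than kd-only islands.

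The surplus lay in the kd list. Chromosome 8 had 8.53 islands per Mb in control, rank 10 of 19, and 10.8 per Mb in kd, where the median of the other autosomes was 6.79 and chromosome 11 alone was higher at 10.9. Kd-only islands came to 5.25 per Mb, against 1.26 to 3.03 on the other autosomes, and control-only islands to 3.13 per Mb, against 2.37 to 7.29. Islands covered 10.8% of the chromosome in control, 13.6 Mb, and 10.4% in kd, 13.1 Mb. The covered share was thus nearly level between the lists although the kd list held more islands, with a log2 ratio of kd to control of 0.34. In kd the covered share was the highest of all autosomes, the others lying between 3.80% and 9.52%. In control it was already rank 2 of 19, and the median of the other autosomes was 7.26%. Sequence composition was not extreme, with a GC content of 42.4% (rank 7 of 19) and 8.28 protein-coding genes per Mb (rank 9).

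Islands on chromosome 8 were wide in both lists. The median width was 9000 bp in control and 7000 bp in kd, while the other autosomes had 5000 to 6600 bp and 5100 to 6600 bp. Shared islands had medians of 11000 bp in the control list and 11200 bp in the kd list. Control-only islands had a median of 6800 bp and kd-only islands of 5000 bp, each the highest of the 19 autosomes. In the 604 blocks in which islands of both lists overlapped, the median log2 width ratio of kd to control was -0.07. The other autosomes had medians from -0.28 to 0.05. Of these blocks, 54.8% were narrower in kd and 43.0% wider. Their islands summed to 10.2 Mb in control and 9.07 Mb in kd, a log2 ratio of -0.17, against -0.38 to 0.01 on the other autosomes.

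The kd-only share was higher than on the other autosomes in each width class. Among kd islands of 2 to 5 kb, 76.5% were kd-only on chromosome 8 and 47.1% on the other autosomes. In the class of 5 to 10 kb the shares were 55.0% and 18.3%, and in the class of 10 to 20 kb 18.3% and 2.82%. Among the widest kd islands, 20 kb or more, 6 of 121 were kd-only (4.96%), against 1.85% elsewhere. Control-only shares were lower than on the other autosomes under 2 kb, 53.2% (39.2 to 66.7) against 70.2%, and higher from 20 kb, 15.0% (10.4 to 21.2) against 5.25%. Between 2 and 10 kb they differed by less than 5 percentage points.

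**Figure D2:**
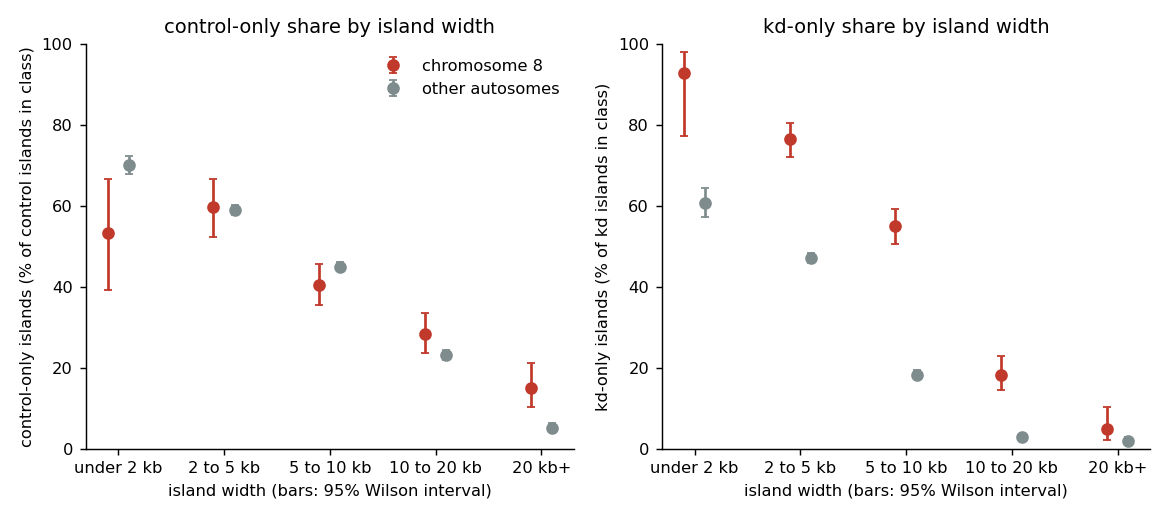
Percent of control islands that were control-only (left) and of kd islands that were kd-only (right) by island width, for chromosome 8 (red) and the 18 other autosomes pooled (grey), with 95% Wilson intervals. The kd-only share of islands between 5 and 10 kb is 55.0% on chromosome 8 and 18.3% on the other autosomes, and the control-only share in that class is 40.4% and 45.0%.

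Islands in a single list, kd-only and control-only alike, were mostly weak calls. The p-value deposited with each island was turned into its percentile within the whole list, where low values are the strongest. Kd-only islands on chromosome 8 had a median percentile of 70.9, control-only islands of 67.1, and shared islands of 29.5 in control and 36.0 in kd. The other autosomes had medians of 67.8 to 77.4 for kd-only and 66.7 to 76.8 for control-only islands. The kd list was cut into 5 equal parts by p-value. In the strongest, 3 of 203 chromosome 8 islands were kd-only (1.48%, 0.504 to 4.25), and 4 of 3343 islands on the other autosomes (0.120%). In the next the shares were 24.0% and 9.09%, and in the weakest 73.2% and 51.5%. None of the 149 control and 67 kd islands with a p-value listed as 0 was in a single list.

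Of the control-only islands, 68 (17.3%) lay within 5 kb of a kd island, and 25 of the kd-only islands (3.79%) lay within 5 kb of a control island. Among the shared islands, 67 in control and 53 in kd had less than 50% of their width in the other list. The smallest overlap that made an island shared was 200 bp in both lists, and the smallest gap that left one in a single list was 200 bp in control and 400 bp in kd. Control-only islands lay at a median of 23200 bp from the nearest kd island. Kd-only islands lay at a median of 172000 bp from the nearest control island, and 499 of the 660 were over 50 kb away, against 106 of the 393 control-only islands.

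Kd-only islands were AT-rich and far from the starts of protein-coding genes. Their median GC content was 38.9%, the lowest of the 19 autosomes, which otherwise ranged from 40.8% to 43.4%. Control-only islands had a median of 48.4%, and shared islands of 47.2% in control and 46.6% in kd. CpG dinucleotides numbered 5.00 per kb in kd-only and 13.9 per kb in control-only islands (medians). The ratio of observed to expected CpG was 0.134 and 0.233. Repeat-masked bases made up a similar part of each, with medians of 24.3% and 21.2%. The nearest protein-coding transcription start site (TSS) lay at a median of 349684 bp from a kd-only island on chromosome 8, while the medians of the other autosomes ran from 27219 to 207974 bp. For control-only islands the median was 23737 bp. A gene region here begins 1 kb before the TSS and ends with the transcript. Such a region was touched by 41.4% of kd-only islands, within the 38.4% to 56.5% of the other autosomes. For control-only islands the share was 68.2%, above the 47.3% to 66.9% elsewhere. The TSS of a protein-coding gene lay inside 1.82% of kd-only and 14.0% of control-only islands.

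AT-rich islands were more frequent in the kd list of chromosome 8 and were rarely present in control. Of its 1351 kd islands, 31.5% had a GC content under 40%, against 9.78% on the other autosomes. Of these 426 islands, 407 were kd-only (95.5%, 93.1 to 97.1), and the other autosomes had between 63.9% and 90.2%. From 40 to 44% GC, 61.0% were kd-only, within the range of 37.7% to 63.7% elsewhere. At 44 to 48% GC the share was 12.2%, and from 48% it was 1.95%, both below the pooled shares of 17.4% and 4.77% on the other autosomes.

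The same was seen with windows of 1 Mb grouped by GC content. In windows under 38% GC there were 13.2 kd-only islands per Mb on chromosome 8 and 0.667 to 7.50 on the other autosomes. From 38 to 40% the values were 9.57 and 0.601 to 5.82 per Mb. In windows of 46% GC or more, chromosome 8 had 0.333 kd-only islands per Mb, less than the pooled 0.666 of the other autosomes. Control-only islands numbered 8.05 per Mb in these windows, below the 9.33 to 16.3 of the other autosomes. From 44 to 46% they numbered 5.22 per Mb, against 5.55 to 9.40. Across the 126 windows of chromosome 8 the Spearman correlation of GC content and kd-only islands was -0.67, and across 2277 windows of the other autosomes it was -0.18. For control-only islands it was 0.82 and 0.85. Neighbouring windows share the library and domains of chromatin and are not independent, so these are descriptions.

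**Figure D3:**
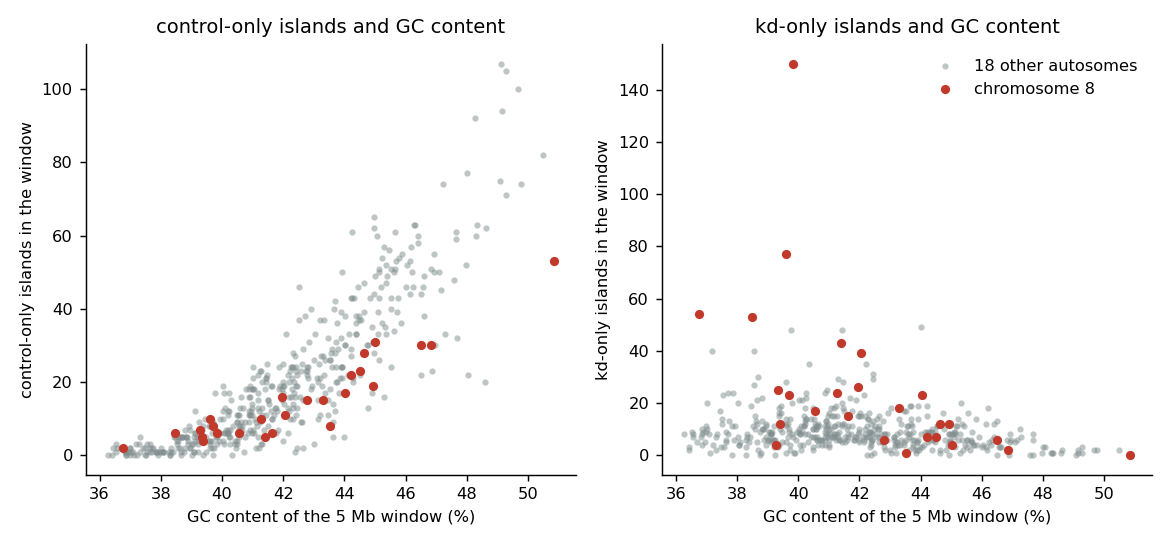
Control-only (left) and kd-only (right) islands in each 5 Mb window against the GC content of the window in percent, for 26 windows of chromosome 8 (red) and 470 windows of the other autosomes (grey). The chromosome 8 windows with the most kd-only islands, 150, 77, 54 and 53, all lie under 40% GC and above the highest other window, 49.

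Along the chromosome the kd-only islands were concentrated. The window of 100 to 105 Mb held 150 of them, that of 95 to 100 Mb held 77 and that of 50 to 55 Mb held 54, which together is 42.6% of the 660. The window with the most elsewhere had 49, on chromosome 7, and 4 windows of chromosome 8 exceeded it. Kd-only islands outnumbered control-only islands in 15 of the 26 windows, and in 178 of 470 on the other autosomes (37.9%). Without the 10 Mb from 95 to 105 Mb, 40.1% of kd islands were kd-only and the log2 ratio was 0.20, both still the highest of the 19 autosomes. The control-only islands lay elsewhere, with 53 in the window of 120 to 125 Mb, which held no kd-only island. There were 31 at 105 to 110 Mb and 30 at 10 to 15 Mb, tied with 115 to 120 Mb.

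Many kd-only islands followed each other without a shared island between them. The longest such run had 71 kd-only islands over 1.63 Mb at chr8:101115801-102748400, between the TSSs of Cdh8 and Cdh11, and reached into the Cdh11 gene. Islands covered 23.6% of it, their widths ran from 1000 to 19800 bp, and their GC content from 31.1% to 42.2%. Another run of 42 islands lay directly before it, over 0.985 Mb at chr8:100119601-101105000. A run of 44 islands lay at chr8:49032401-50469400, over 1.44 Mb between Tenm3 and Aga. None of these 3 runs held the TSS of a protein-coding gene. The longest run on any other autosome had 33 islands, on chromosome 11, and the median of their longest runs was 12.5. Runs of at least 10 numbered 18 on chromosome 8 and held 62.9% of its kd-only islands. On the other 18 autosomes together there were 34 such runs with 12.2% of their kd-only islands. The longest control-only run of chromosome 8 had 11 islands, over 0.435 Mb between the TSSs of Jph3 and Zfpm1, with a GC content of 49.8% to 53.8%.

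The other antibodies were read in these runs. Of the 71 islands of the longest run, none overlapped an Ezh2 or Smarca4 peak in either list. H3K27ac islands overlapped 5 of them in control and 4 in kd, and H3K4me3 islands 0 and 1. In the run of 44 islands, none overlapped Ezh2 or Smarca4, H3K27ac overlapped 2 in each list, and H3K4me3 0 in control and 1 in kd. In the run of 42 islands, Ezh2 overlapped 1 in control and 0 in kd, H3K27ac 3 and 4, and Smarca4 and H3K4me3 none in either list. Over all kd-only islands of the chromosome, H3K27ac overlapped 10.0% in control and 9.24% in kd. In the control-only run near Jph3, Smarca4 peaks overlapped 5 of 11 islands in control and 8 in kd, and H3K27ac islands 0 and 6.

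The gene regions with the most kd-only islands were large. Csmd1, a large transmembrane protein with complement control domains, had 2 islands in control and 27 in kd, 25 of them kd-only, and its covered share went from 0.607% to 11.3% of 1644 kb. Galntl6, of the polypeptide GalNAc-transferase family, went from 4 to 22 islands and from 2.46% to 13.7%. Nrg1, the ErbB ligand neuregulin 1, and March1, a membrane-bound ubiquitin ligase, had 3 and 2 islands in control and 12 each in kd. Sgcz, a sarcoglycan, went from 2 to 9. The cadherin genes Cdh8 and Cdh11, which encode adhesion molecules of the developing nervous system and mesenchyme, went from 2 to 9 and from 1 to 5 islands, and their covered shares from 2.10% to 15.2% and from 7.40% to 37.0%. Promoter islands of Csmd1, Nrg1, Sgcz, Cdh8 and Cdh11 were in both lists, so that the kd-only islands came in addition to a shared island at the start of the gene.

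Other genes had the most control-only islands. Il34, a cytokine ligand of the Csf1 receptor, had 5 islands in control that covered 77.4% of its region and none in kd. The covered share of Gse1 went from 76.0% to 31.0%, that of Col4a2, a basement membrane collagen, from 27.2% to 6.25%, and that of Zfhx3, a zinc finger homeobox factor, from 22.5% to 15.6%. The gene model Gm20388 spans 4436 kb at chr8:119910841-124345722 across many other genes. It had 93 islands in control, 52 of them control-only, and 44 in kd, none kd-only, and is named for completeness.

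**Figure D4:**
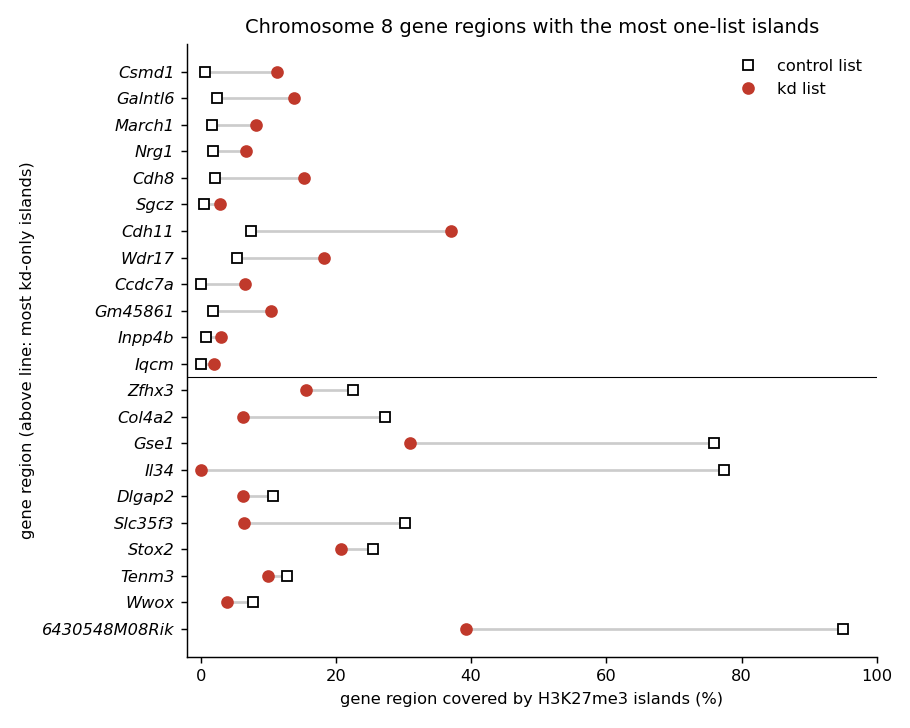
Percent of each gene region covered by H3K27me3 islands in the control list (open squares) and the kd list (filled red circles), for the chromosome 8 genes with the most kd-only islands (above the line) and the most control-only islands (below the line, without Gm20388 and 1 gene not reported here). Cdh11 goes from 7.40% to 37.0%, and Il34 from 77.4% to 0%.

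Of the 10 kd-only islands with the lowest p-value, 1 held a protein-coding TSS. The strongest, at chr8:20493001-20549800, was 56800 bp wide with a p-value of 2.34e-120, held no annotated gene, was 54.5% repeat-masked and lay 952000 bp from the next control island. The next were at chr8:99446401-99463800, upstream of Cdh8 (7.91e-99), at chr8:101458801-101478600, within the run before Cdh11 (5.50e-89), and at chr8:54450001-54464000, 65580 bp from the TSS of Asb5 (5.50e-75). An island of 8800 bp in an intron of Csmd1 had a p-value of 1.06e-63 and one of 8200 bp in Galntl6 8.71e-61. The exception in composition was the island in Kifc3, a kinesin gene, with 52.4% GC and a gap of 1000 bp to a control island.

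The repeat-rich block around 20 Mb differed between libraries for further marks. Of the 56800 bp of the strongest kd-only island, 56600 bp were inside H3K4me3 islands of the control list and none inside those of the kd list. Of the 79400 bp at chr8:19903201-19982600, a kd-only island at Gm31371, H3K4me3 islands covered 64400 bp and H3K27ac islands 55200 bp in control, and 0 and 3200 bp in kd. The widest kd island of the chromosome, 147600 bp at chr8:20564601-20712200 over Gm21119, was also kd-only, with a p-value of 2.07e-22 at percentile 53.5, and 53.2% of it was repeat-masked. The part of repeats in these islands was not tested. With islands under 50% repeat-masked alone, 48.4% of the kd islands of the chromosome were kd-only.

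The 10 strongest control-only islands had GC contents of 46.7% to 60.7%, and 5 of them held a protein-coding TSS. The first, at chr8:70312801-70333200 over Cers1, a ceramide synthase, and Gdf1, a TGF-beta family ligand, was 20400 bp wide with a p-value of 1.15e-294. An island of 33000 bp in Chd9, a chromatin remodeller, had a p-value of 8.03e-262, and 26800 bp of it lay in H3K27ac islands of the kd list, against 3200 bp in control. The islands at Isyna1, the inositol synthase, and at Cdh15, the muscle cadherin, were also in control alone. Smarca4 peaks were present in 7 of the 10 in the control list and in all 10 in the kd list, and Ezh2 peaks in 1 in each.

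The 10 widest control islands were all shared, and so were 7 of the 10 widest kd islands. The island over Zfpm1, the GATA cofactor FOG1, was 160200 bp wide in control, and 40.3% of it was inside kd islands. That over Nfix and Lyl1, which encode transcription factors, was 123400 bp wide in control with 94.7% in kd islands. At Hand2, a factor of heart and limb development, the island was 59000 bp in control and 66600 bp in kd. At Sox1, the neural factor, it was 66600 bp and 54000 bp. At Irf8, a factor of the myeloid lineage, it was 98600 bp and 28800 bp. Among the 10 widest control islands were also those over the array of 5S rRNA genes, 138200 bp, over Mlkl and Fa2h, 103400 bp, and over the calcium channel gene Cacna1a, 79200 bp.

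At promoters, here the TSS of a protein-coding gene with 1 kb on either side, control alone had more than kd alone, unlike for the islands as a whole. Of 1040 promoters on chromosome 8, 313 lay in an island of both lists (30.1%) and 582 in neither. In control alone there were 112 (10.8%, 9.03 to 12.8), against 8.36% over all autosomes. In kd alone there were 33 (3.17%, 2.27 to 4.42), against 2.41%. Both shares were within the range of the other autosomes, 4.52% to 11.5% and 1.27% to 4.55%. Of the gene regions, 133 touched an island in control alone (12.8%, against 9.99% over all autosomes) and 44 in kd alone (4.23%, against 2.94%). The 33 included Gpm6a, a neuronal membrane glycoprotein, the polarity protein gene Pard3, the odorant receptor genes Olfr371 and Olfr373 and the defensin genes Defb4, Defb10 and Defb14.

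The promoters of gene groups on the chromosome were counted by list. Of all 1040 promoters, 30.1% were in both lists, 10.8% in control alone, 3.17% in kd alone and 56.0% in neither. Of 26 transcription regulators of development, 20 had the promoter in an island of both lists, among them Sox1, Hand2, Pou4f2, Irx3, Irx5, Foxf1 and Foxc2. In 4, control alone had it (Sall1, Klf1, Cbfa2t3 and Smad1), and no promoter of this group was in kd alone. Of 20 signalling genes, 10 were in both lists, 3 in control alone (Gdf1, Insr and Irs2), and 7 in neither. Of 13 genes of the nervous system, 8 were in both, Unc13a in control alone and Gpm6a in kd alone. All 16 genes of adhesion and guidance were marked in control, and 14 of them in both lists. The exceptions were Cdh1, the epithelial cadherin of the stem cell state, and Cdh15. The islands in the regions of these 16 genes went from 43 in control to 74 in kd, 43 of which were kd-only. Csmd1 alone held 25 of these 43, and without it the islands went from 41 to 47, with 18 kd-only and 13 control-only. Of 15 widely expressed genes, 13 were in neither list, and Cbfb and Cyld in both. These groups were put together with earlier results of the data known and carry no test.

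The identity of the cells was checked by promoters across the genome. Of 10 pluripotency genes, H3K4me3 islands lay at 9 in each list, and 8 had no H3K27me3 island in either list, Pou5f1, Nanog and Sox2 among them. Esrrb had one in both lists and Klf4 in control. All 10 promoters of genes that mark other cell types, such as Gata4, Cdx2 and Pax6, had an H3K27me3 island in both lists.

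The marks at the promoters differed between these classes. Where H3K27me3 was in both lists, H3K4me3 islands lay at 69.3% of promoters in control and 82.7% in kd, and Ezh2 peaks at 23.6% and 49.2%. H3K27ac islands lay at 4.79% and 29.1%. At such promoters of the other autosomes, H3K4me3 lay at 65.62% and 76.04% and Ezh2 at 26.12% and 45.99%. Larger shares of both in the kd list were thus not particular to chromosome 8. H3K27ac lay at 3.26% and 13.72% of these promoters on the other autosomes, below chromosome 8 in both lists. At the 112 promoters with H3K27me3 in control alone, H3K27ac was present at 8.93% in control and 46.4% in kd. Ezh2 was at 1 and 5 of them, 0.893% and 4.46%. On the other autosomes such promoters had H3K27ac at 7.31% and 26.3%, and Ezh2 at 0.369% and 1.48%. At the 582 promoters without H3K27me3 in either list, H3K27ac was present at 21.8% and 53.6%, against 23.5% and 39.8% on the other autosomes. A larger share in the kd list was thus also seen where H3K27me3 was in neither list. Of the 33 promoters with H3K27me3 in kd alone, none overlapped an Ezh2 peak, which allows a share of up to 10.4% (upper bound of the Wilson interval). On the other autosomes the shares of such promoters with an Ezh2 peak were 0.213% in control and 4.48% in kd, both inside that bound, so that chromosome 8 is not set apart by it.

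The other 4 antibodies were compared at the islands, with the other autosomes weighted to the island widths of chromosome 8, since wide islands meet more regions. Kd-only islands met few Smarca4 peaks. They overlapped 3.48% of kd-only islands in either list, against 12.1% in control and 9.55% in kd on the other autosomes, and all 18 were higher. Ezh2 peaks overlapped 4.09% of kd-only islands in control and 0.303% in kd, within the ranges of 2.36% to 13.8% and 0% to 2.54%. H3K27ac and H3K4me3 were within the range of the other autosomes at kd-only islands too, with 9.24% and 4.24% in the kd list.

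Control-only islands on chromosome 8 met more regions of the other antibodies. H3K27ac islands overlapped 10.4% of them in control and 32.6% in kd, against highest values of 5.84% and 20.9% on any other autosome. H3K4me3 islands overlapped 14.8% and 20.1%, against highest values of 10.4% and 15.0%. Smarca4 peaks overlapped 44.3% in control, above all 18 other autosomes, and 40.5% in kd, above 17 of them. Ezh2 peaks overlapped 3.82% and 1.53%.

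At shared islands the same was seen for H3K27ac alone, with the weighting by width. Islands of the control H3K27ac list overlapped 14.2% of shared islands on chromosome 8 and those of the kd list 34.2% (30.7 to 37.9), while the other autosomes reached at most 8.78% and 24.5%. Ezh2 peaks overlapped 22.6% and 27.6%, and H3K4me3 islands 38.1% and 46.8%, in each case below the pooled share of the other autosomes.

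**Figure D5:**
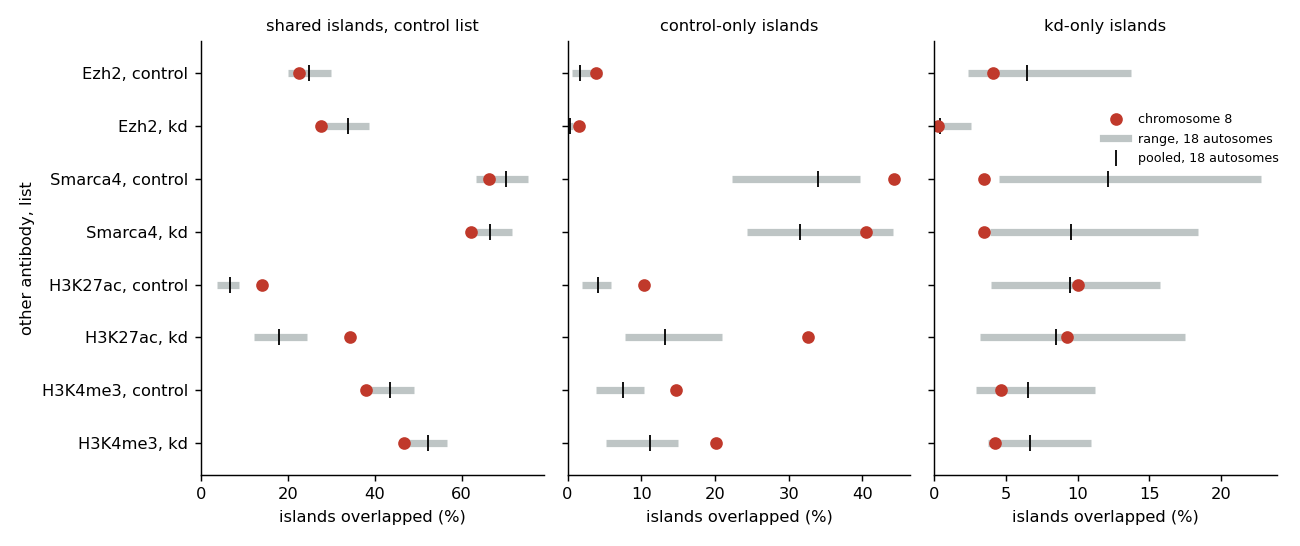
Percent of shared, control-only and kd-only H3K27me3 islands that overlap a region of each other antibody (vertical axis, antibody and list), for chromosome 8 (red circles), with the range over 18 other autosomes (grey bars) and their pooled value (black ticks), both weighted to the widths of the chromosome 8 islands. H3K27ac lies above the bars at shared and control-only islands, and Smarca4 below them at kd-only islands.

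Chromosome 8 also stood apart in the lists of the other antibodies as a whole. H3K27ac islands numbered 19.3 per Mb in control and 25.8 in kd, the highest of the autosomes in both, the others reaching 16.6 and 25.0. Ezh2 peaks numbered 4.55 per Mb in control, above the highest other value of 3.92, and 2.56 in kd, rank 4. The log2 ratio of kd to control was -0.83 for Ezh2 and -0.24 for Smarca4, the lowest of the 19 autosomes for each. Of the control Ezh2 peaks on chromosome 8, 61.7% were repeat-masked for 50% of their bases or more, against 44.6% elsewhere, and 9.01% of the kd peaks, against 2.77%. Of the Ezh2 peaks on the chromosome, 56.3% in control and 91.9% in kd lay in H3K27me3 islands of the same list. On the other autosomes 63.6% and 94.7% did. Both shares of chromosome 8 were inside the ranges elsewhere, 50.7% to 73.6% and 90.1% to 96.8%. H3K4me3 was in the middle of the autosomes, rank 7 in both lists. The part of these chromosome-wide densities, and of the island widths, in the kd-only surplus was not tested, and the lists hold no read counts from which the depth or the copy number of chromosome 8 could be read.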

How the data were processed

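ChIP-seq of 5 antibodies was measured in control and Smarcb1 kd cells, 10 libraries and 4 inputs, grouped by the sample labels. The authors trimmed reads with Trim Galore, aligned them to mm10 with Bowtie2 and kept unique alignments with samtools 1.9. SICER islands of H3K27me3, H3K27ac and H3K4me3 carry the p-value deposited by the authors, and MACS2 peaks of Smarca4 and Ezh2 the deposited MACS2 score, neither scaled between libraries. The methods name input as background and the peak names IgG, which could not be settled. By the methods, H3K27me3 and Smarca4 were handled by a company and the other antibodies in the authors' laboratory. The methods state an approximate depth for Ezh2, H3K27ac and H3K4me3 and none for H3K27me3 and Smarca4. The depth of each single library is unknown, since the lists hold no counts. The end of an island was taken as included, and coordinates are 1-based. Overlaps were computed in Python 3.11.15 with numpy 2.4.6 and pandas 2.3.3 and tested on simulated lists. Genes were those of GENCODE M21 on GRCm38, whereas the methods name a later release, and repeat-masked bases those in lower case in the genome. Named islands were the 10 with the lowest p-value of each single-list kind and the 10 widest of each list, named windows the 3 of 5 Mb with the most single-list islands of each kind, and named genes those of fixed lists and those with the most single-list islands. Runs and individual promoters were chosen after their values were seen. The islands, lists and rules were chosen with earlier results of these data known. With 1 library per condition no test between conditions was made. The alternatives were a stricter p, merging, a larger overlap, equal list lengths, repeats, width, bases and GC content.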

Additional observations from a re-analysis of the deposited data

How the results depend on the processing

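The kd-only share of chromosome 8 stayed the highest of the 19 autosomes under every alternative but the count of bases, where chromosome 14 was higher, and so did the log2 ratio of kd-only over control-only islands, whereas the control-only share was the lowest as counted and with merged islands alone. With p of at most 1e-20, the control-only share was 40.5%, the kd-only share 34.5%, the log2 ratio -0.34, the log2 density over the median autosome 0.10 in control and 0.43 in kd, and the covered share 9.29% and 7.23%. With bases, the shares were 42.5% and 40.3% and the ratio -0.13. With an overlap of 50% the shares were 43.0% and 52.8%. With lists of equal length they were 30.4% and 52.1%, the ratio 1.38 and the control coverage 10.0%. Merging within 2 kb gave a ratio of 0.95. With islands of at least 5 kb, the kd-only share was 40.3%, the ratio 0.34, the log2 densities 0.39 and 0.88 and the kd coverage 9.32%. Leaving out islands with 50% repeats gave a kd coverage of 9.72%. With GC bins the log2 densities were -0.26 in control, the lowest of the autosomes, and 0.52 in kd, the highest. Chosen after seeing the data, leaving out the 2 windows of 5 Mb with the most kd-only islands gave a kd-only share of 40.1% and a ratio of 0.20, and leaving out the region of Gm20388 gave a ratio of 0.95. The kd H3K27ac overlap of shared islands was 29.5% when 50% of either region was asked for, and chromosome 8 stayed highest. Of kd-only islands, 25.8% touched a protein-coding gene region and 1.82% held a protein-coding TSS, against 41.4% in any gene region. The causes were not tested. No paired analysis was possible because each condition had 1 library per antibody, for the same reason no replicate could be left out, and with depth unknown a missing island does not show that the mark was absent.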
